A study of Mus musculus with 17 samples.

Results

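Mouse MutuDC cells given lipopolysaccharide (LPS) in the versikine condition were compared with LPS-treated cells of the empty-vector condition by RNA sequencing. MutuDC is an immortalised line of conventional dendritic cells, and the labels call the conditions Vkine + LPS (3 samples) and EV + LPS (3 samples). The same line without LPS, labelled Vkine (3 samples) and EV (2 samples), gave a second comparison and shared its model with the first. These 11 samples are part of a series of 17, whose stated theme is how versikine shapes the immune microenvironment of tumours. All 4 groups are the same cell line, so they hold 1 cell lineage and no host tissue. The sources used here state neither the LPS dose and exposure time nor the way in which the cells met Vkine. Nor do they say whether replicates were separate cultures, so each p-value measures the spread between these samples, which may be technical. The genes described are those of the count table that passed a low-count filter: 13357 of 54532 counted genes.

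Versikine is the amino-terminal fragment that ADAMTS proteases cut from versican, a large chondroitin sulphate proteoglycan of the extracellular matrix. Versican and its fragments are known as ligands and scaffolds around myeloid cells, where Toll-like receptor 2 and the hyaluronan receptor CD44 are among the receptors linked to them. LPS is read by Toll-like receptor 4 with MD-2 and CD14. Its adaptors MyD88 and TRIF lead to NF-kB, to MAP kinases and to interferon regulatory factors, and a dendritic cell then matures: it makes cytokines and chemokines and raises costimulatory molecules. Conventional type 1 dendritic cells (cDC1), which MutuDC resembles, are known for XCR1, CLEC9A, BATF3 and IRF8 and for presenting antigen of dying cells to CD8 T cells.

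Library totals of the 6 LPS samples were 16550499 to 21263321 counts. The first principal component of their log2 CPM (CPM is each count over its TMM-scaled library total) took 55.5% of the variance and split the groups, and the second took 18.4% and put EV + LPS replicates 2 and 3 at its opposite ends (30.6 and -27.5). Mitochondrial genes took 0.936% to 1.03% of counts in Vkine + LPS samples, against 1.73% to 1.96% in EV + LPS samples. Genes of cytosolic ribosomal proteins took 4.63% to 4.91% of counts in Vkine + LPS samples, against 4.399%, 3.58% and 4.995% in EV + LPS replicates 1, 2 and 3. All 25 cDC1 genes listed for this line passed the filter and summed to 13338 to 13399 CPM in Vkine + LPS samples, against 12912 to 13368 CPM in EV + LPS samples. Irf8, the transcription factor that specifies cDC1, had 4315, 4618 and 4433 CPM in Vkine + LPS samples, against 3829, 3751 and 3991 CPM in EV + LPS samples. Vcan, the versican gene, was near the detection limit, with 17, 5 and 8 counts in Vkine + LPS samples, against 3, 9 and 5 in EV + LPS samples, and did not pass the test (log2 fold change 0.70 ± 0.53, edgeR adjusted p = 0.307). Counts per gene do not separate a Vkine transcript from versican.

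Of the 13357 genes tested, 5606 (42.0%) passed an adjusted p of 0.05 in the edgeR quasi-likelihood test with Benjamini-Hochberg adjustment. In Vkine + LPS samples 3043 genes (22.8%) were higher and 2563 (19.2%) were lower than in EV + LPS samples. These shares are the background for each gene group below. Most of the differences were small: 3727 of the called genes differed by under 1.5-fold, while 401 were at least 2-fold higher and 340 at least 2-fold lower. Tested against a fold of 1.5 instead of 0, 484 genes were called, 302 higher and 182 lower. In 48.3% of genes the 3 CPM values of one group lay all on one side of the other group's. The share of higher genes among the called, 54.3% here, was 41.9% when libraries were scaled by their totals alone, 45.2% with upper-quartile factors and 42.7% with deposited FPKM on the log2(FPKM + 1) scale. Fold changes near 0 therefore depend on the scaling, and the median over all genes moved between 0.009 and -0.065 on the log2 scale.

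**Figure D1:**
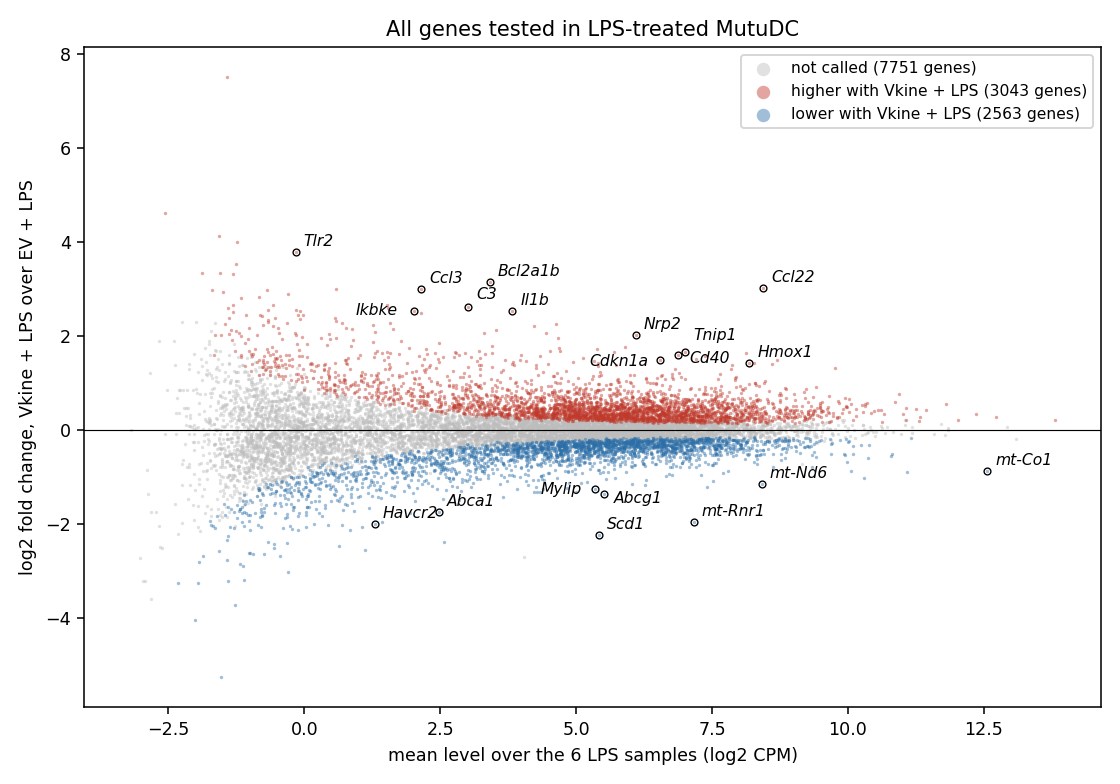
Log2 fold change of Vkine + LPS over EV + LPS (vertical axis) against the mean level over the 6 samples in log2 CPM (horizontal axis), 1 point a gene, red for the 3043 called higher, blue for the 2563 called lower and grey for those not called. Ccl22 stands high among abundant genes on the red side, while Scd1 and several mitochondrial genes (mt-) stand low on the blue side.

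The largest rises included chemokine, survival and inflammatory genes. Among coding genes averaging 2 or more log2 CPM, Bcl2a1b, an anti-apoptotic member of the BCL2 family, had 28.7, 34.4 and 31.4 CPM in Vkine + LPS samples, against 3.97, 2.88 and 3.69 CPM in EV + LPS samples, and rose 8.91-fold (log2 fold change 3.16 ± 0.15, edgeR adjusted p = 3.66e-10). Bcl2a1b, Bcl2a1a and Bcl2a1d are near-identical copies, so reads may have been split among them. Ccl22, a ligand of CCR4 made by mature dendritic cells, had 971, 999.8 and 1005 CPM in Vkine + LPS samples, against 122, 117 and 128 CPM in EV + LPS samples, and rose 8.11-fold (log2 fold change 3.02 ± 0.07, edgeR adjusted p = 6.38e-14). Ccl3, an inflammatory chemokine, rose 8.06-fold, C3, the central complement component, 6.15-fold, and Ikbke, a kinase upstream of interferon regulatory factors, 5.81-fold. Il1b, Pigz (a mannosyltransferase of GPI anchors), Traf1, Adgre1 (the F4/80 antigen), Cx3cl1 (fractalkine), Mab21l3, Nrp2 (a semaphorin coreceptor), Gnas (the stimulatory G protein alpha subunit), Atp5k (subunit e of ATP synthase) and Ebi3 (a subunit of interleukin-27) made up the 15 largest. Their fold changes lay between 3.62 and 5.79. Atp5k varied most between replicates, with 45.1, 68.1 and 55.2 CPM in Vkine + LPS samples, against 16.3, 6.77 and 12.04 CPM in EV + LPS samples.

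Of the coding genes that average 2 or more log2 CPM, predicted genes left out, 2 lipid genes had the largest falls. Scd1, the stearoyl-CoA desaturase, had 18.6, 19.5 and 21.1 CPM in Vkine + LPS samples, against 89.04, 103 and 85.9 CPM in EV + LPS samples, and was 4.69-fold lower (log2 fold change -2.23 ± 0.09, edgeR adjusted p = 1.04e-10). Abca1, a cholesterol exporter, was 3.33-fold lower. Enpp4 (an ectonucleotidase), Sema4b (a semaphorin) and Arl11 (a small GTPase) followed, 2.82-fold, 2.801-fold and 2.75-fold lower. The other 10 were Abcg1 (a second cholesterol exporter), Kcnj2 (a potassium channel), Lpin1 (a phosphatidate phosphatase), the zinc-finger genes Zfp101, Zfp97 and Zfp945, Hap1 (a huntingtin-associated protein), Mylip (a ubiquitin ligase that degrades the LDL receptor), mt-Co2 (a subunit of cytochrome oxidase) and Tspan8 (a tetraspanin). These 10 were 2.33-fold to 2.55-fold lower. Outside this rule, log2 fold changes of all genes tested went down to -5.25. Among the named genes outside it, the ribosomal RNA mt-Rnr1 and the rarer Havcr2 and Epcam (an epithelial adhesion molecule) fell more than Abca1, by 1.95, by 1.99 and by 2.02 on the log2 scale. The rule for naming these 30 genes left out predicted genes and required values without overlap, so that separation is no result.

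The 250 bases before the transcription start are shown for 4 named genes, the 2 of each direction with the smallest p that have an entry in the RefSeq promoter table (GRCm38.p6, 9432 of the 13357 genes matched). They let the rises and falls be set beside sequence motifs. Ccl22 (chr8:94745434-94745683, plus strand) and Cdkn1a, the cell-cycle inhibitor p21 (chr17:29090729-29090978, plus strand), were higher in Vkine + LPS. Mylip (chr13:45389492-45389741, plus strand) and Lpin1 (chr12:16610967-16611216, minus strand) were lower. The RefSeq start lies 94 bases from the deposited gene start for Ccl22, 3 for Cdkn1a and 0 for Mylip and Lpin1. Capitals mark motif matches, and each sequence runs 5′ to 3′ on the gene's strand.
Ccl22: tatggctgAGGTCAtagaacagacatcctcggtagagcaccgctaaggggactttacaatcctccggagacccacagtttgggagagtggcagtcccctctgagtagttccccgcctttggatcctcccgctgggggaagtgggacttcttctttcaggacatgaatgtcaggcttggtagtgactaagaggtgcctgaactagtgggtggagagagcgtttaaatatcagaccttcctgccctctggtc
Cdkn1a: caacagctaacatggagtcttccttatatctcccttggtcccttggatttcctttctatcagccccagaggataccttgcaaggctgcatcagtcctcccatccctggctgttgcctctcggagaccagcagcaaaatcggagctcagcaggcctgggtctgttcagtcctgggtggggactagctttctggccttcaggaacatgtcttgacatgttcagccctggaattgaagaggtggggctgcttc
Mylip: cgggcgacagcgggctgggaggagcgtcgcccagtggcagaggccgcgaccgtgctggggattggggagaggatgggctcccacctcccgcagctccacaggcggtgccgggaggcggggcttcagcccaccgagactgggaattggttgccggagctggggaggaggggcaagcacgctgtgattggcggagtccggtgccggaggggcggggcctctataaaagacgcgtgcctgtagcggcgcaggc
Lpin1: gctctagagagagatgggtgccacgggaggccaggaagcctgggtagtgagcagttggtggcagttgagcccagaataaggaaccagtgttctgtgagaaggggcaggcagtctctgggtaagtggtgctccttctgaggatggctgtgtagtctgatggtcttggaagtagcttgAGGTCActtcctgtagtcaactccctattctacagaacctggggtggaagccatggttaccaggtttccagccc
6 motifs were searched on both strands: an NF-kB core (GGGNNTTTC), an interferon response core (GAAANNGAA), AP-1 (TGANTCA), an SREBP element (TCACNCCAC), EGR (GCGTGGGCG) and a nuclear receptor core (AGGTCA). The only matches in these 4 windows were 1 nuclear receptor core in Ccl22 and 1 in Lpin1, and 10.4% of all 9432 windows hold that motif. The NF-kB core stood in 7.89% of the 266 promoters of genes at least 2-fold higher and in 2.79% of the 179 at least 2-fold lower, against 3.65% of all. Over all called genes the shares were 4.08% of the 2331 promoters of higher genes and 3.37% of the 1931 of lower genes. For the interferon response core the shares were 8.65%, 8.94% and 6.56%, and for the SREBP element 0.376%, 1.68% and 0.933%. A match is a run of letters and not a shown binding site.

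Chemokine genes rose as a group. Of 14 tested, 13 rose and 0 fell, against 22.8% and 19.2% of all genes, and the median log2 fold change was 1.80, against 0.01 over all genes. Ccl7 was the member that was not called, with 0.7803, 0.286 and 0.329 CPM in Vkine + LPS samples, against 0.166, 0.176 and 0.336 CPM in EV + LPS samples (log2 fold change 1.05 ± 0.57, edgeR adjusted p = 0.158). Ccl17, which shares the receptor CCR4 with Ccl22, had 6.58, 8.13 and 5.97 CPM in Vkine + LPS samples, against 0.883, 1.35 and 1.01 CPM in EV + LPS samples, and rose 6.36-fold (log2 fold change 2.67 ± 0.25, edgeR adjusted p = 8.39e-07). The lowest Vkine + LPS sample of Ccl17 lay above its highest EV + LPS sample. Cxcl9, an interferon-gamma inducible ligand of CXCR3, had 261, 237 and 252 CPM in Vkine + LPS samples, against 82.2, 86.96 and 94.8 CPM in EV + LPS samples, and rose 2.84-fold (log2 fold change 1.51 ± 0.07, edgeR adjusted p = 4.38e-10). Cxcl10, which binds the same receptor, had 22.7, 19.5 and 19.996 CPM in Vkine + LPS samples, against 11.3, 8.59 and 11.1 CPM in EV + LPS samples (log2 fold change 1.01 ± 0.12, edgeR adjusted p = 8.09e-06). Fractalkine (Cx3cl1) had 17.9, 21.1 and 21.04 CPM in Vkine + LPS samples, against 4.74, 4.41 and 5.15 CPM in EV + LPS samples (log2 fold change 2.06 ± 0.14, edgeR adjusted p = 3.28e-08).

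Inflammatory cytokine genes moved in both directions. Of 16 tested, 10 rose and 4 fell, with a median log2 fold change of 0.65. Without Vkine + LPS replicate 2 the counts were 6 and 3. Il1b, the interleukin-1 beta gene, had 33.99, 35.7 and 32.98 CPM in Vkine + LPS samples, against 5.08, 4.88 and 7.73 CPM in EV + LPS samples, and rose 5.79-fold (log2 fold change 2.53 ± 0.18, edgeR adjusted p = 3.79e-08). Il1rn, which encodes the antagonist of the interleukin-1 receptor, rose beside it, with 6.58, 7.497 and 6.96 CPM in Vkine + LPS samples, against 1.38, 1.47 and 0.616 CPM in EV + LPS samples (log2 fold change 2.60 ± 0.27, edgeR adjusted p = 2.68e-06). Tnf had 18.97, 20.03 and 21.4 CPM in Vkine + LPS samples, against 5.903, 5.001 and 6.55 CPM in EV + LPS samples, and rose 3.45-fold (log2 fold change 1.79 ± 0.13, edgeR adjusted p = 6.42e-08). Il12b, the p40 subunit of interleukin-12, had 39, 33 and 34 counts in Vkine + LPS samples, against 4, 5 and 10 counts in EV + LPS samples (log2 fold change 2.37 ± 0.47, edgeR adjusted p = 8.20e-04). The Vkine + LPS samples, where Il12b was high, were enough to carry it past the low-count filter. The call of Il12b is therefore a description and no independent support for a rise. Ebi3 had 8.49, 11.6 and 11.2 CPM in Vkine + LPS samples, against 3.03, 2.35 and 3.19 CPM in EV + LPS samples (log2 fold change 1.86 ± 0.17, edgeR adjusted p = 7.29e-07), and Il27, which pairs with it, was not called (log2 fold change 0.56 ± 0.34, edgeR adjusted p = 0.211). Il6 was called (log2 fold change 0.66 ± 0.25, edgeR adjusted p = 0.0411), with 2.63, 2.58 and 2.96 CPM in Vkine + LPS samples, against 1.38, 1.41 and 2.35 CPM in EV + LPS samples. That call was lost with upper-quartile factors, with library totals alone, without the low-count filter, with DESeq2, with log2(FPKM + 0.1), with the LPS groups fitted alone and without any 1 of the LPS replicates other than EV + LPS replicate 3. Lif, a cytokine of the interleukin-6 family, had 9.22, 7.15 and 8.22 CPM in Vkine + LPS samples, against 8.33, 9.59 and 6.998 CPM in EV + LPS samples, and was not called (log2 fold change -0.01 ± 0.13, edgeR adjusted p = 0.946). Il10, Ifnb1 and Ccr7 did not pass the low-count filter. Il10 had 7, 7 and 9 counts in Vkine + LPS samples, against 7, 2 and 2 counts in EV + LPS samples. Ifnb1, an interferon gene, had 0, 2 and 4 counts in Vkine + LPS samples, against 4, 0 and 0 counts in EV + LPS samples. Ccr7, which guides migration to lymph nodes, had 8, 4 and 9 counts in Vkine + LPS samples, against 1, 1 and 1 counts in EV + LPS samples.

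**Figure D2:**
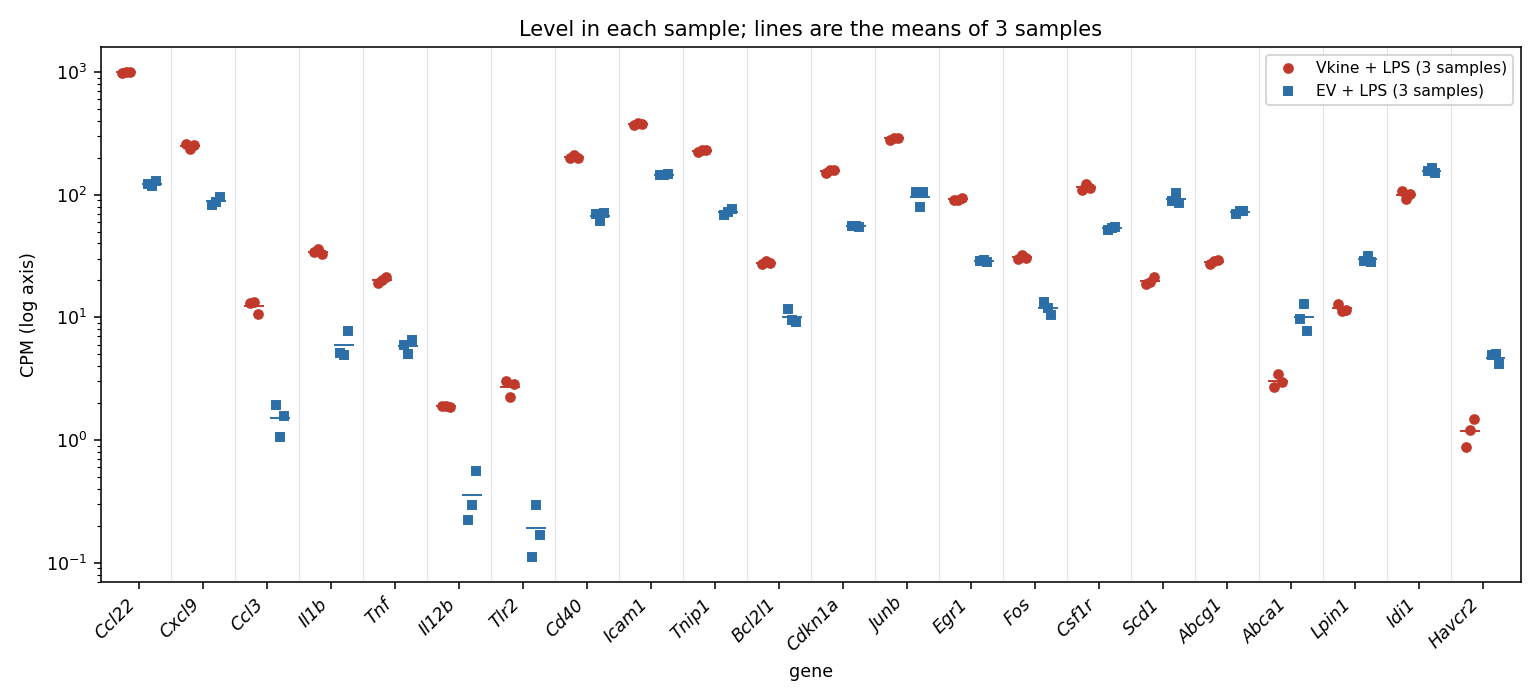
CPM on a log axis in each sample for 22 named genes, with red circles for the 3 Vkine + LPS samples to the left of blue squares for the 3 EV + LPS samples, and a line at each mean. Chemokine, cytokine, NF-kB and immediate early genes lie higher in Vkine + LPS, while Scd1, Abcg1, Abca1, Lpin1, Idi1 and Havcr2 lie lower.

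Toll-like receptors, the LPS receptor complex and their adaptors were called in both directions. Of 23 tested, which include receptors for ligands other than LPS, 11 were higher and 4 lower. The lower count was 2 without Vkine + LPS replicate 1 and 2 without Vkine + LPS replicate 2. Tlr4, the LPS receptor itself, had 9.17, 7.497 and 7.18 CPM in Vkine + LPS samples, against 7.12, 6.83 and 5.71 CPM in EV + LPS samples, and was not called (log2 fold change 0.28 ± 0.15, edgeR adjusted p = 0.158). Its partners, added after their values were seen, were called in opposite directions. Cd14, which hands LPS to the complex, had 14.8, 15.3 and 14.8 CPM in Vkine + LPS samples, against 6.45, 3.82 and 7.89 CPM in EV + LPS samples (log2 fold change 1.30 ± 0.17, edgeR adjusted p = 2.45e-05). Ly96, which encodes MD-2, had 2.63, 2.46 and 3.94 CPM in Vkine + LPS samples, against 4.08, 6.001 and 5.54 CPM in EV + LPS samples (log2 fold change -0.79 ± 0.20, edgeR adjusted p = 0.00518). Tlr2, which recognises bacterial lipopeptides and has been linked to versican, was rare, with 62, 39 and 52 counts in Vkine + LPS samples, against 2, 5 and 3 counts in EV + LPS samples (log2 fold change 3.79 ± 0.40, edgeR adjusted p = 2.52e-06). Without LPS it was near the detection limit in both groups, with 0.202, 0.104 and 0.179 CPM in Vkine samples, against 0.155 and 0.059 CPM in EV samples. Tlr2 passed the low-count filter only through the Vkine + LPS samples, where it was high. Its call is therefore a description and no independent support for a rise. Tlr9, the receptor for unmethylated CpG DNA, had 113, 108 and 118 CPM in Vkine + LPS samples, against 51.1, 70.8 and 44.6 CPM in EV + LPS samples (log2 fold change 1.03 ± 0.12, edgeR adjusted p = 9.20e-06). Tlr3, the receptor for double-stranded RNA that marks cDC1, went the other way, with 1130.5, 997 and 1105 CPM in Vkine + LPS samples, against 1579, 1857 and 1444 CPM in EV + LPS samples (log2 fold change -0.59 ± 0.08, edgeR adjusted p = 4.13e-05). Irak2, a kinase of the MyD88 complex, had 52.1, 57.8 and 53.3 CPM in Vkine + LPS samples, against 30.5, 32.8 and 28.9 CPM in EV + LPS samples (log2 fold change 0.82 ± 0.08, edgeR adjusted p = 1.16e-06), and Irak1 was not called (log2 fold change -0.11 ± 0.06, edgeR adjusted p = 0.153).

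NF-kB subunits and the inhibitors that NF-kB itself induces were mostly higher. Of 24 tested, 16 rose and 2 fell, with a median log2 fold change of 0.64. Tnip1 (ABIN-1), an adaptor that restrains NF-kB through A20, had 221, 232 and 233 CPM in Vkine + LPS samples, against 68.6, 71.5 and 76.1 CPM in EV + LPS samples, and rose 3.17-fold (log2 fold change 1.66 ± 0.07, edgeR adjusted p = 2.67e-10). Nfkbiz, the nuclear inhibitor IkB-zeta that is needed for a second wave of cytokine genes, had 41.9, 37.8 and 42.6 CPM in Vkine + LPS samples, against 13.02, 13.003 and 12.04 CPM in EV + LPS samples (log2 fold change 1.68 ± 0.09, edgeR adjusted p = 2.02e-09). Traf1, a signalling adaptor of TNF receptors, had 23.1, 25.4 and 23.3 CPM in Vkine + LPS samples, against 5.24, 5.47 and 5.65 CPM in EV + LPS samples (log2 fold change 2.13 ± 0.13, edgeR adjusted p = 6.31e-09). Icam1, the adhesion molecule that binds LFA-1 on T cells, had 370.4, 384 and 379 CPM in Vkine + LPS samples, against 144, 143 and 148 CPM in EV + LPS samples (log2 fold change 1.38 ± 0.06, edgeR adjusted p = 2.67e-10). Vkine + LPS samples lay above EV + LPS samples in each of these 4 genes. The groups did not overlap, in either direction, in 48.3% of all genes tested. The 4 were named for their small p, and for Traf1 the naming rule also required separation, so it is no result. Cyld, a deubiquitinase that restrains the pathway, was not called (log2 fold change -0.16 ± 0.07, edgeR adjusted p = 0.0781), nor was Sod2, a mitochondrial superoxide dismutase and NF-kB target (log2 fold change -0.03 ± 0.07, edgeR adjusted p = 0.742).

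Immediate early genes, which cells switch on within a short time of a stimulus, were higher as well. Of 24 tested, 17 rose and 0 fell, with a median log2 fold change of 0.69. Egr1, a zinc-finger factor induced through ERK, had 90.2, 90.99 and 93.95 CPM in Vkine + LPS samples, against 29.02, 29.2 and 28.5 CPM in EV + LPS samples, and rose 3.17-fold (log2 fold change 1.67 ± 0.08, edgeR adjusted p = 8.94e-10). Junb and Fos, subunits of AP-1, also rose. Junb had 280.1, 290.5 and 292 CPM in Vkine + LPS samples, against 105, 78.7 and 104 CPM in EV + LPS samples (log2 fold change 1.58 ± 0.11, edgeR adjusted p = 3.41e-08). Fos had 30.1, 32.05 and 30.6 CPM in Vkine + LPS samples, against 13.2, 11.9 and 10.4 CPM in EV + LPS samples (log2 fold change 1.38 ± 0.09, edgeR adjusted p = 1.99e-08). The levels without LPS were higher still for Fos, with 246, 228 and 217 CPM in Vkine samples, against 27.2 and 25.5 CPM in EV samples. Klf6 and Egr3 were not called (log2 fold change -0.08 ± 0.06, edgeR adjusted p = 0.325, and log2 fold change 0.09 ± 0.09, edgeR adjusted p = 0.407). Regulators that end such signals were often higher: of 21 genes for MAP kinase feedback and mRNA decay, 11 were higher and 2 lower. Dusp2, a phosphatase that turns off MAP kinases, had 9.36, 9.499 and 9.09 CPM in Vkine + LPS samples, against 3.696, 2.06 and 3.19 CPM in EV + LPS samples (log2 fold change 1.64 ± 0.19, edgeR adjusted p = 8.51e-06). Zc3h12a (Regnase-1), an RNase that degrades cytokine mRNAs, had 15.4, 18.1 and 14.03 CPM in Vkine + LPS samples, against 5.35, 5.94 and 5.09 CPM in EV + LPS samples (log2 fold change 1.53 ± 0.13, edgeR adjusted p = 2.13e-07).

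Genes of dendritic cell maturation were mostly higher. Those of antigen presentation and cDC1 identity were called in both directions, at shares nearer the background. Of 23 genes of mature migratory dendritic cells, 14 rose and 0 fell, with a median of 0.77. Of 17 costimulatory and checkpoint genes, 10 rose and 3 fell. Cd40, which receives help from T cells, had 199.7, 211 and 199.5 CPM in Vkine + LPS samples, against 69.6, 60.4 and 71.04 CPM in EV + LPS samples, and rose 3.04-fold (log2 fold change 1.60 ± 0.07, edgeR adjusted p = 2.67e-10). Cd80, a ligand of CD28, had 64.9, 67.4 and 66.8 CPM in Vkine + LPS samples, against 42.9, 45.9 and 42.6 CPM in EV + LPS samples (log2 fold change 0.60 ± 0.07, edgeR adjusted p = 1.40e-05). Cd86, which binds the same receptor, was not called, with 179, 179.7 and 177 CPM in Vkine + LPS samples, against 157, 175 and 182 CPM in EV + LPS samples (log2 fold change 0.06 ± 0.06, edgeR adjusted p = 0.502). Marcksl1, an actin-regulating protein of migratory dendritic cells, had 1337, 1419 and 1356 CPM in Vkine + LPS samples, against 564, 469 and 611 CPM in EV + LPS samples (log2 fold change 1.32 ± 0.08, edgeR adjusted p = 9.53e-09). Havcr2, the checkpoint receptor TIM-3, fell, with 0.878, 1.202 and 1.48 CPM in Vkine + LPS samples, against 4.91, 5.001 and 4.14 CPM in EV + LPS samples (log2 fold change -1.99 ± 0.20, edgeR adjusted p = 1.45e-06). The call for Havcr2 went with counts of 18, 21 and 27 in Vkine + LPS samples, against 89, 85 and 74 in EV + LPS samples.

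Of 25 cDC1 identity genes tested, 8 were higher (32%) and 7 lower (28%), against 22.8% and 19.2% of all genes. Their median log2 fold change was -0.02, against 0.01 over all genes. Without Vkine + LPS replicate 2 the lower count was 4. Batf3, a transcription factor required for cDC1, had 93.97, 101 and 98.1 CPM in Vkine + LPS samples, against 75.9, 56.01 and 75.6 CPM in EV + LPS samples (log2 fold change 0.50 ± 0.10, edgeR adjusted p = 6.81e-04), and Irf8 was higher by 0.21 on the log2 scale (edgeR adjusted p = 0.00742), a call that was lost when the LPS groups were fitted alone. Wdfy4, needed for cross-presentation, rose (log2 fold change 0.51 ± 0.08, edgeR adjusted p = 1.34e-04), as did Cd8a, a surface marker of cDC1 in lymphoid tissue (log2 fold change 0.59 ± 0.06, edgeR adjusted p = 4.00e-06). Cd24a, a cDC1 surface antigen, fell, with 408, 389.9 and 387 CPM in Vkine + LPS samples, against 559, 521 and 561 CPM in EV + LPS samples (log2 fold change -0.47 ± 0.06, edgeR adjusted p = 1.59e-05). Clec9a, the receptor for dead cells, was slightly lower (log2 fold change -0.22 ± 0.07, edgeR adjusted p = 0.0141), a call lost without Vkine + LPS replicate 2. Xcr1 (log2 fold change 0.03 ± 0.06, edgeR adjusted p = 0.748), the receptor for XCL1, and Flt3 (log2 fold change -0.17 ± 0.08, edgeR adjusted p = 0.0886), the growth factor receptor of dendritic cells, were not called. Of 23 genes of MHC class I presentation, 7 rose (30.4%) and 5 fell (21.7%), and the higher count was 12 without EV + LPS replicate 3. H2-D1, a classical class I gene, had 856, 922 and 873 CPM in Vkine + LPS samples, against 598, 514 and 658 CPM in EV + LPS samples (log2 fold change 0.58 ± 0.08, edgeR adjusted p = 5.34e-05), and Tap1, a peptide transporter subunit, rose (log2 fold change 0.43 ± 0.06, edgeR adjusted p = 3.98e-05). Near-identical class I genes may share reads. Of 17 class II genes, 4 rose (23.5%) and 5 fell (29.4%). The higher count was 2 without Vkine + LPS replicate 2, without replicate 3 or with upper-quartile factors. H2-Ab1 had 3404, 4001 and 3586 CPM in Vkine + LPS samples, against 3706, 3097 and 4229 CPM in EV + LPS samples, and was not called (log2 fold change -0.01 ± 0.09, edgeR adjusted p = 0.967).

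Interferon-stimulated genes as a group were near the background. Of 39 genes of the type I interferon response, 6 rose and 6 fell (10 lower with library totals alone), and the median log2 fold change was -0.01. Oasl1, which represses translation of IRF7 in mice, had 385, 421 and 414 CPM in Vkine + LPS samples, against 203, 193 and 223 CPM in EV + LPS samples (log2 fold change 0.98 ± 0.07, edgeR adjusted p = 3.51e-08). Usp18, which limits signalling from the interferon receptor, had 102, 96.4 and 103 CPM in Vkine + LPS samples, against 70.1, 57.7 and 65.6 CPM in EV + LPS samples (log2 fold change 0.64 ± 0.08, edgeR adjusted p = 7.75e-06). Mx1, an antiviral GTPase, and Parp14, a mono-ADP-ribosyltransferase, also rose, by 0.67 and 0.70 on the log2 scale. The largest rise of the list, added after its value was seen, was that of the rare Cmpk2, at a mean of -0.03 log2 CPM (log2 fold change 2.45 ± 0.44, edgeR adjusted p = 3.45e-04). Cmpk2 was rare and chosen for its value, so its call is a description and no independent support. The falls were smaller, and the largest of them, chosen after the values were seen, were Isg20, an interferon-induced exonuclease, and Herc6, a ligase that attaches ISG15 in mice. Isg20 had 4.05, 4.69 and 3.62 CPM in Vkine + LPS samples, against 6.01, 5.295 and 5.82 CPM in EV + LPS samples (log2 fold change -0.47 ± 0.15, edgeR adjusted p = 0.0216). Herc6 had 8.44, 6.01 and 5.42 CPM in Vkine + LPS samples, against 7.9995, 8.88 and 10.5 CPM in EV + LPS samples (log2 fold change -0.45 ± 0.16, edgeR adjusted p = 0.0322). Ifitm3, which blocks viral entry, had 176, 219 and 204 CPM in Vkine + LPS samples, against 233, 179.9 and 266 CPM in EV + LPS samples, and was not called (log2 fold change -0.18 ± 0.11, edgeR adjusted p = 0.208). Of 14 interferon-inducible GTPases, 5 rose and 0 fell. Gbp2, a guanylate-binding protein that attacks vacuoles of pathogens, had 46.1, 47.8 and 47.2 CPM in Vkine + LPS samples, against 12.1, 14.2 and 17.5 CPM in EV + LPS samples (log2 fold change 1.68 ± 0.13, edgeR adjusted p = 7.68e-08). Guanylate-binding protein genes form a family of close copies, so their counts are uncertain. Of 16 genes of the list of IRF and STAT transcription factors, 8 rose and 1, Stat2, fell. Irf5, which activates cytokine genes downstream of MyD88, had 657, 690.4 and 693 CPM in Vkine + LPS samples, against 489, 446 and 492 CPM in EV + LPS samples (log2 fold change 0.52 ± 0.06, edgeR adjusted p = 6.14e-06). Stat2, a subunit of the interferon-activated factor ISGF3, fell, with 92.998, 97.6 and 91.5 CPM in Vkine + LPS samples, against 119.7, 119 and 118 CPM in EV + LPS samples (log2 fold change -0.34 ± 0.06, edgeR adjusted p = 4.38e-04), while Irf9, its partner, was not called (log2 fold change -0.08 ± 0.07, edgeR adjusted p = 0.371).

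The cholesterol exporters and the desaturase gene Scd1 fell. LXR is a nuclear receptor for oxysterols that induces the exporters ABCA1 and ABCG1, the ligase MYLIP and the lipogenic factor SREBP1, while SREBP2 drives cholesterol synthesis when sterol is scarce. Of 19 genes of LXR targets, desaturases and fatty acid synthesis, 13 fell and 2 rose, with a median log2 fold change of -0.35. The 2 that rose, added after their values were seen, were the fatty acid synthase gene Fasn (log2 fold change 0.50 ± 0.08, edgeR adjusted p = 9.13e-05) and the LXR gene Nr1h2 (log2 fold change 0.50 ± 0.11, edgeR adjusted p = 0.00263). Apoe, added likewise, was not called (log2 fold change -0.20 ± 0.15, edgeR adjusted p = 0.280). Abcg1 had 27.3, 28.9 and 29.1 CPM in Vkine + LPS samples, against 69.2, 74.1 and 74.1 CPM in EV + LPS samples (log2 fold change -1.35 ± 0.07, edgeR adjusted p = 2.02e-09). Abca1 had 2.68, 3.43 and 2.96 CPM in Vkine + LPS samples, against 9.65, 12.8 and 7.73 CPM in EV + LPS samples (log2 fold change -1.74 ± 0.19, edgeR adjusted p = 3.20e-06). Mylip, whose promoter is shown above, had 27.2, 24.7 and 27.8 CPM in Vkine + LPS samples, against 63.4, 60.7 and 64.4 CPM in EV + LPS samples (log2 fold change -1.24 ± 0.07, edgeR adjusted p = 5.20e-09). Lpin1 had 12.8, 11.2 and 11.5 CPM in Vkine + LPS samples, against 28.7, 31.9 and 28.3 CPM in EV + LPS samples (log2 fold change -1.32 ± 0.09, edgeR adjusted p = 1.86e-08). These 4 genes are among the 15 largest falls. Acly, which makes acetyl-CoA for fatty acid synthesis, had 313, 302 and 308 CPM in Vkine + LPS samples, against 299, 325 and 279 CPM in EV + LPS samples, and was not called (log2 fold change 0.03 ± 0.06, edgeR adjusted p = 0.704), nor was the elongase Elovl6 (log2 fold change -0.08 ± 0.09, edgeR adjusted p = 0.532).

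Sterol synthesis genes also tended to fall, by less. Of 25 tested, 11 fell and 4 rose, with a median of -0.15. Idi1, isopentenyl-diphosphate isomerase, had 106, 91.8 and 101 CPM in Vkine + LPS samples, against 154, 166 and 149 CPM in EV + LPS samples (log2 fold change -0.65 ± 0.07, edgeR adjusted p = 5.13e-06). Msmo1, a demethylating oxidase of the late pathway, had 219.7, 189.6 and 200.2 CPM in Vkine + LPS samples, against 303, 272 and 309 CPM in EV + LPS samples (log2 fold change -0.54 ± 0.07, edgeR adjusted p = 1.74e-05). Hmgcs1, a synthase of the early pathway, had 316, 281 and 299 CPM in Vkine + LPS samples, against 423, 375 and 405 CPM in EV + LPS samples (log2 fold change -0.42 ± 0.07, edgeR adjusted p = 1.03e-04). Scap, the sterol sensor that escorts SREBP, rose (log2 fold change 0.51 ± 0.08, edgeR adjusted p = 7.02e-05). Of 14 eicosanoid genes, 8 fell and 2 rose, with a median of -0.35. Hpgd, which inactivates prostaglandins, had 116, 109 and 115 CPM in Vkine + LPS samples, against 220.2, 199 and 234 CPM in EV + LPS samples (log2 fold change -0.94 ± 0.08, edgeR adjusted p = 2.09e-07). Hpgds, the haematopoietic prostaglandin D synthase, had 5.46, 3.83 and 4.38 CPM in Vkine + LPS samples, against 10.1, 11.8 and 10.1 CPM in EV + LPS samples (log2 fold change -1.22 ± 0.13, edgeR adjusted p = 4.10e-06). Ptgs1 (cyclooxygenase 1) and Tbxas1 (thromboxane synthase) fell by 0.51 and by 0.66 on the log2 scale.

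Transcripts encoded by the mitochondrial genome were lower together. Of 15 tested, 13 fell and 0 rose, with a median log2 fold change of -0.73. mt-Rnr1, the small ribosomal RNA of the mitochondrion, had 81.7, 65.3 and 72.5 CPM in Vkine + LPS samples, against 288, 249 and 314 CPM in EV + LPS samples (log2 fold change -1.95 ± 0.10, edgeR adjusted p = 6.77e-10). mt-Nd6, the only protein-coding gene on the light strand, had 237, 213 and 241 CPM in Vkine + LPS samples, against 501, 459 and 559 CPM in EV + LPS samples (log2 fold change -1.13 ± 0.08, edgeR adjusted p = 5.31e-08). mt-Co1, the catalytic subunit of cytochrome oxidase, had 4641, 4224 and 4598 CPM in Vkine + LPS samples, against 8108, 8892 and 7642 CPM in EV + LPS samples (log2 fold change -0.87 ± 0.07, edgeR adjusted p = 9.74e-08). mt-Nd1, a subunit of complex I, had 1647, 1531 and 1633 CPM in Vkine + LPS samples, against 2994, 2939 and 2914 CPM in EV + LPS samples (log2 fold change -0.88 ± 0.06, edgeR adjusted p = 1.86e-08). The 2 genes not called were mt-Nd3 (log2 fold change -0.06 ± 0.14, edgeR adjusted p = 0.7699) and mt-Nd4l (log2 fold change -0.24 ± 0.22, edgeR adjusted p = 0.416). These genes are what makes up the mitochondrial share of each library given above, and the part of RNA quality in their fall was not tested. Without LPS the same list had 5 higher and 0 lower genes, and mt-Rnr1 had 190.3, 164 and 179.9 CPM in Vkine samples, against 96.5 and 87.7 CPM in EV samples. Fewer mitochondria and less RNA per mitochondrion cannot be told apart in bulk RNA.

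**Figure D3:**
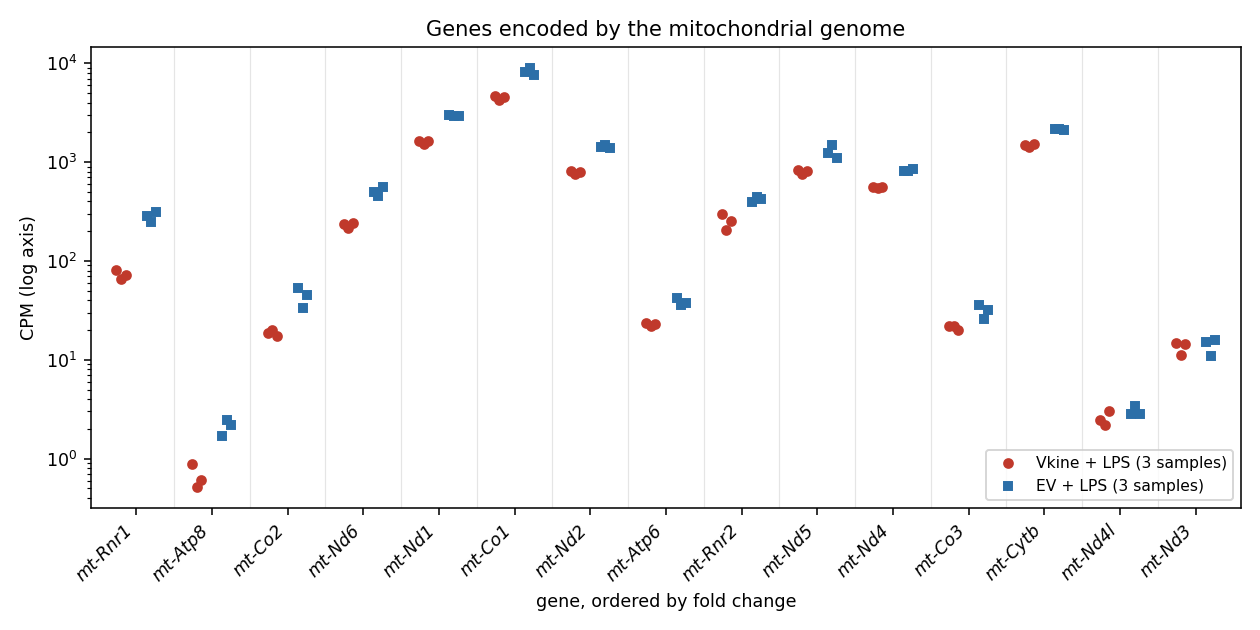
CPM on a log axis for the 15 genes of the mitochondrial genome, ordered by fold change, with red circles for the 3 Vkine + LPS samples to the left of blue squares for the 3 EV + LPS samples. 13 of the 15 lie lower in Vkine + LPS and were called, while the samples of mt-Nd3 and mt-Nd4l overlap between the groups.

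The nuclear genes of the respiratory chain did not follow. Of 33 tested, 13 rose and 1 fell, with a median of 0.19, and without EV + LPS replicate 3 the higher count was 22. Without EV + LPS replicate 2 the median was 0.09, with 11 higher and 2 lower. Atp5g1, a subunit of the ring of ATP synthase, had 132, 152 and 130.0 CPM in Vkine + LPS samples, against 95.3, 80.3 and 101 CPM in EV + LPS samples (log2 fold change 0.58 ± 0.09, edgeR adjusted p = 8.78e-05). Cox5a, a subunit of complex IV, had 81.98, 88.01 and 81.03 CPM in Vkine + LPS samples, against 53.6, 41.2 and 58.3 CPM in EV + LPS samples (log2 fold change 0.71 ± 0.12, edgeR adjusted p = 3.43e-04). Of 25 ribosome biogenesis genes, 16 rose and 0 fell (4 lower with library totals alone, 3 with upper-quartile factors and 3 without EV + LPS replicate 2). Nob1, an endonuclease that matures 18S rRNA, had 101, 112 and 106 CPM in Vkine + LPS samples, against 71.995, 63.1 and 74.5 CPM in EV + LPS samples (log2 fold change 0.61 ± 0.08, edgeR adjusted p = 3.44e-05). Mybbp1a, a nucleolar protein, had 461, 478 and 493 CPM in Vkine + LPS samples, against 305, 332 and 322 CPM in EV + LPS samples (log2 fold change 0.58 ± 0.06, edgeR adjusted p = 3.52e-06). Of 40 cytosolic ribosomal protein genes, 21 rose and 1 fell. That count rested on single libraries: it was 12 higher without Vkine + LPS replicate 2, 15 higher and 9 lower without EV + LPS replicate 2, and 30 higher without EV + LPS replicate 3. The median moved with it, 0.28 with all samples, 0.13 without EV + LPS replicate 2 and 0.41 without EV + LPS replicate 3. Rplp1, a stalk protein of the large subunit, showed the spread, with 867, 1018 and 931 CPM in Vkine + LPS samples, against 550.0, 375 and 574 CPM in EV + LPS samples (log2 fold change 0.91 ± 0.14, edgeR adjusted p = 2.79e-04). The ribosomal protein share of EV + LPS replicates 2 and 3, given above, lay at the ends of the EV + LPS range, and its part in these counts was not tested.

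Genes that protect from oxidative stress were mostly higher. Of 18 NRF2 targets and heme and iron genes, 12 rose and 1 fell (3 without EV + LPS replicate 2), with a median of 0.56. Hmox1, the enzyme that degrades heme, had 468, 479 and 484 CPM in Vkine + LPS samples, against 181, 164 and 188 CPM in EV + LPS samples, and rose 2.68-fold (log2 fold change 1.42 ± 0.07, edgeR adjusted p = 6.39e-10). Txnrd1 (thioredoxin reductase) had 241, 244 and 247 CPM in Vkine + LPS samples, against 163, 162 and 149 CPM in EV + LPS samples (log2 fold change 0.63 ± 0.06, edgeR adjusted p = 8.74e-07). Fth1, the ferritin heavy chain, had 2219, 2401 and 2276 CPM in Vkine + LPS samples, against 1621, 1243 and 1690.2 CPM in EV + LPS samples (log2 fold change 0.60 ± 0.10, edgeR adjusted p = 1.35e-04). Nfe2l2, the NRF2 gene itself, was not called (log2 fold change -0.14 ± 0.07, edgeR adjusted p = 0.117). Slc7a11, the cystine transporter shared by the NRF2 and ATF4 programmes, had 6.39, 5.15 and 6.35 CPM in Vkine + LPS samples, against 1.49, 2.29 and 2.86 CPM in EV + LPS samples (log2 fold change 1.43 ± 0.21, edgeR adjusted p = 6.97e-05). Of 20 ATF4 and amino acid genes, 11 rose and 0 fell. Atf4 had 339.7, 344 and 341 CPM in Vkine + LPS samples, against 262, 208 and 259 CPM in EV + LPS samples (log2 fold change 0.49 ± 0.09, edgeR adjusted p = 4.40e-04). Slc7a5, a transporter of large neutral amino acids, had 256, 273 and 269.8 CPM in Vkine + LPS samples, against 177, 177 and 180.2 CPM in EV + LPS samples (log2 fold change 0.58 ± 0.06, edgeR adjusted p = 2.06e-06). Psat1, of serine synthesis, was not called (edgeR adjusted p = 0.965). Of 24 unfolded protein response and heat shock genes, 2 were higher and 6 lower, the second share being near that of all genes. The lower count was 10 with library totals alone and 12 without EV + LPS replicate 2. Without EV + LPS replicate 3, 5 were higher and 5 lower. Herpud1, of ER-associated degradation, rose 2.0-fold, with 494, 499 and 492 CPM in Vkine + LPS samples, against 253, 234 and 256 CPM in EV + LPS samples (edgeR adjusted p = 4.39e-09). Dnajb9, an ER cochaperone, fell, with 23.2, 19.7 and 18.95 CPM in Vkine + LPS samples, against 37.5, 37.1 and 37.96 CPM in EV + LPS samples (log2 fold change -0.86 ± 0.09, edgeR adjusted p = 2.02e-06).

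Survival and cell-cycle genes changed on both sides. Of 25 genes of the BCL2 and IAP families, 15 rose and 4 fell. Bcl2l1, which encodes BCL-XL, had 27.02, 29.01 and 27.8 CPM in Vkine + LPS samples, against 11.6, 9.47 and 9.18 CPM in EV + LPS samples, and rose 2.76-fold (log2 fold change 1.47 ± 0.10, edgeR adjusted p = 3.26e-08). Birc3, an inhibitor of apoptosis induced by NF-kB, had 176, 177 and 175 CPM in Vkine + LPS samples, against 109.7, 116 and 107 CPM in EV + LPS samples (log2 fold change 0.67 ± 0.06, edgeR adjusted p = 7.47e-07). Of 21 p53 targets and cell-cycle inhibitors, 11 rose and 3 fell. Cdkn1a, which blocks cyclin-dependent kinases, had 151, 157 and 158 CPM in Vkine + LPS samples, against 55.9, 55.7 and 54.4 CPM in EV + LPS samples, and rose 2.81-fold (log2 fold change 1.49 ± 0.06, edgeR adjusted p = 1.14e-10). Cdkn1b (p27), a relative of it, fell, with 60.4, 55.1 and 53.9 CPM in Vkine + LPS samples, against 82.7, 81.6 and 78.6 CPM in EV + LPS samples (log2 fold change -0.52 ± 0.07, edgeR adjusted p = 2.77e-05). Of 40 replication and mitosis genes, 10 rose and 13 fell. The higher count was 5 without Vkine + LPS replicate 2 and 6 with library totals alone or upper-quartile factors. Ccnd1 (cyclin D1) and Cdk6, partners at the start of the cycle, rose. Ccnd1 had 450.3, 455 and 470.1 CPM in Vkine + LPS samples, against 237, 262 and 222 CPM in EV + LPS samples (log2 fold change 0.93 ± 0.06, edgeR adjusted p = 3.38e-08). Cdk6 had 23.4, 21.5 and 24.5 CPM in Vkine + LPS samples, against 9.21, 9.24 and 8.12 CPM in EV + LPS samples (log2 fold change 1.39 ± 0.11, edgeR adjusted p = 1.04e-07). Bub1, of the spindle checkpoint, fell, with 86.95, 80.7 and 82.2 CPM in Vkine + LPS samples, against 128, 146 and 122 CPM in EV + LPS samples (log2 fold change -0.66 ± 0.08, edgeR adjusted p = 5.99e-06), and Mcm3, of the replicative helicase, was not called (log2 fold change 0.03 ± 0.06, edgeR adjusted p = 0.725). Of 20 glycolysis and glucose transport genes, 9 rose and 2 fell. Pfkp, a phosphofructokinase, had 744, 780.3 and 762 CPM in Vkine + LPS samples, against 543, 587 and 584 CPM in EV + LPS samples (log2 fold change 0.42 ± 0.06, edgeR adjusted p = 3.25e-05), and Hif1a, which induces the pathway under low oxygen, fell, with 352, 307 and 329 CPM in Vkine + LPS samples, against 479, 513 and 416 CPM in EV + LPS samples (log2 fold change -0.51 ± 0.08, edgeR adjusted p = 8.53e-05).

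Receptors for growth factors and matrix were called in both directions. Of 28 chemokine and cytokine receptors, 9 rose and 7 fell, against 22.8% and 19.2% of all genes. The shares of these 28, 32.1% higher and 25% lower, both lay above the background. Their median log2 fold change was 0.01, against 0.01 over all genes. Csf2rb, the shared receptor chain for GM-CSF and interleukins 3 and 5, had 349, 361 and 366 CPM in Vkine + LPS samples, against 142, 156 and 141 CPM in EV + LPS samples, and rose 2.45-fold (log2 fold change 1.29 ± 0.07, edgeR adjusted p = 8.94e-10). Csf1r, the receptor of M-CSF, had 109.9, 122 and 114 CPM in Vkine + LPS samples, against 51.7, 53.4 and 54.4 CPM in EV + LPS samples (log2 fold change 1.12 ± 0.06, edgeR adjusted p = 4.96e-09). Il1r2, the decoy receptor of interleukin-1, fell, with 149, 143 and 147 CPM in Vkine + LPS samples, against 230.4, 215 and 263 CPM in EV + LPS samples (log2 fold change -0.69 ± 0.07, edgeR adjusted p = 1.60e-06). Of 23 BMP and TGF-beta genes, 11 rose and 4 fell (2 lower without Vkine + LPS replicate 2 or without replicate 3). Id1 and Id3, direct BMP targets that hold back bHLH factors, both rose. Id1 had 36.9, 41.4 and 36.6 CPM in Vkine + LPS samples, against 16.3, 14.5 and 18.2 CPM in EV + LPS samples (log2 fold change 1.22 ± 0.09, edgeR adjusted p = 8.38e-08). Id3 had 354, 381 and 350.3 CPM in Vkine + LPS samples, against 180.3, 138 and 181 CPM in EV + LPS samples (log2 fold change 1.12 ± 0.10, edgeR adjusted p = 4.89e-07). Of 13 genes for versican and hyaluronan receptors and matrix, 5 rose and 2 fell. Cd44 had 362, 325 and 363 CPM in Vkine + LPS samples, against 264, 277 and 242 CPM in EV + LPS samples (log2 fold change 0.43 ± 0.07, edgeR adjusted p = 1.26e-04). Itga5, a subunit of the fibronectin receptor, had 103, 116 and 116 CPM in Vkine + LPS samples, against 61.9, 64.2 and 69.3 CPM in EV + LPS samples (log2 fold change 0.78 ± 0.07, edgeR adjusted p = 4.86e-07), and Lyve1, a hyaluronan receptor, fell, with 25.2, 24.4 and 22.6 CPM in Vkine + LPS samples, against 31.1, 35.9 and 32.97 CPM in EV + LPS samples (log2 fold change -0.47 ± 0.08, edgeR adjusted p = 2.48e-04).

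Markers of other cell types were checked beside these results. Of 20 macrophage markers, 12 were tested, 6 were higher and 1 lower, with log2 fold changes from -1.25 to 2.21. Their summed level was 948 to 991 CPM in Vkine + LPS samples, against 639 to 756 CPM in EV + LPS samples. Adgre1 had 38.2, 40.9 and 40.3 CPM in Vkine + LPS samples, against 8.44, 8.77 and 8.62 CPM in EV + LPS samples (log2 fold change 2.21 ± 0.11, edgeR adjusted p = 8.94e-10). C1qb, of complement C1q, had 24.6, 25.9 and 20.7 CPM in Vkine + LPS samples, against 8.61, 7.12 and 10.2 CPM in EV + LPS samples (log2 fold change 1.46 ± 0.14, edgeR adjusted p = 1.42e-06), whereas Cd68 was not called (log2 fold change -0.13 ± 0.09, edgeR adjusted p = 0.261). Cd163, Cx3cr1, Trem2 and Vsig4 had 0 counts in all 6 samples. Of 20 monocyte and neutrophil markers, 6 were tested, 1 was higher and 1 lower. The sums were 2191 to 2278 CPM in Vkine + LPS samples, against 2067 to 2098 CPM in EV + LPS samples. S100a8, S100a9 and Ly6g were at 0. The 22 cDC2 and plasmacytoid DC genes summed to 402 to 413 CPM in Vkine + LPS samples, against 287 to 353 CPM in EV + LPS samples. Of these, 9 were tested, 3 were higher and 0 lower. B, T and NK cell markers summed to 5.81 to 7.27 CPM in Vkine + LPS samples, against 6.29 to 7.77 CPM in EV + LPS samples. Cd3e was at 0, 4 genes were tested, 0 were higher and 1 lower. Fibroblast, endothelial and epithelial markers summed to 14.9 to 15.9 CPM in Vkine + LPS samples, against 9.06 to 10.5 CPM in EV + LPS samples. Col1a2 and Krt18 were at 0, 3 genes were tested, 2 were higher and 1 lower. The part of these cell types in the results was not tested.

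**Figure D4:**
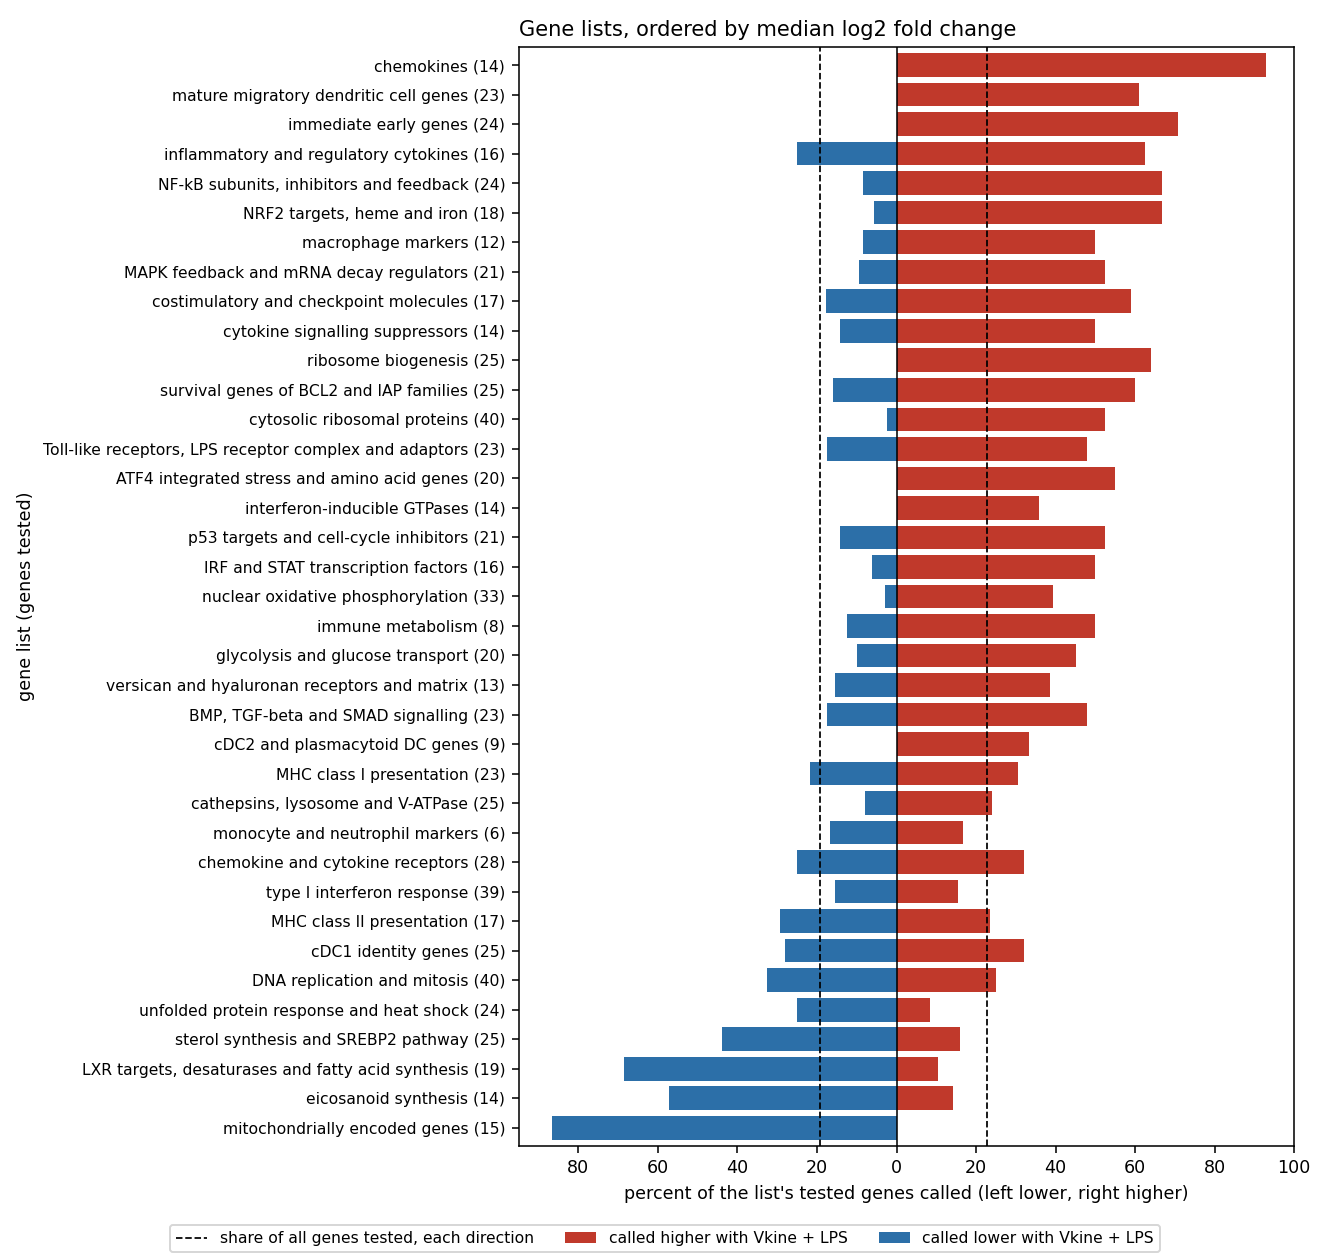
Percent of each list's tested genes that were called, higher in Vkine + LPS to the right (red) and lower to the left (blue), with the number of genes tested in brackets and dashed lines at the shares of all genes, 22.8% higher and 19.2% lower. Chemokine, immediate early, NF-kB and maturation genes reach far to the right of the line, LXR, eicosanoid and mitochondrially encoded genes far to the left, and type I interferon genes lie inside both lines.

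The comparison without LPS asked whether Vkine did the same in resting cells, and shared no sample with the one above. Vkine samples differed from EV samples in 4707 of the 13357 genes (35.2%), 2261 higher (16.9%) and 2446 lower (18.3%). These counts were 2748 without EV replicate 1 and 2906 without EV replicate 2, which each leave 1 EV sample whose spread is taken from the other groups. Across genes the log2 fold changes with and without LPS had a Pearson correlation of -0.26, a description over genes that are not independent. Of the genes called in both, 284 were higher and 97 lower in both conditions, 1449 were higher with LPS and lower without it, and 988 were lower with LPS and higher without it. The 1449 are 47.6% of the genes higher with LPS and 59.2% of those lower without it. The 988 are 38.5% of the genes lower with LPS and 43.7% of those higher without it.

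The test of the difference itself, the interaction of Vkine and LPS, passed for 6577 genes (49.2%), 25.5% with a more positive and 23.7% with a more negative effect of Vkine under LPS. All 2437 genes with opposite calls were among them. Opposite calls in the comparisons with and without LPS nearly fix that outcome, so it is no separate support. With library totals alone the median interaction over all genes was -0.18 on the log2 scale, against -0.02 here, so small interactions depend on the scaling. Of the coding genes that average 2 or more log2 CPM, predicted genes left out, Scd1 had the largest negative one. Without LPS it had 129, 134 and 147 CPM in Vkine samples, against 21.5 and 22.2 CPM in EV samples, the reverse of its order under LPS (interaction -4.87 ± 0.13, edgeR adjusted p = 5.97e-13). Lpin1 likewise had 67.7, 71.6 and 69.3 CPM in Vkine samples, against 9.12 and 9.14 CPM in EV samples without LPS (interaction -4.25 ± 0.13, edgeR adjusted p = 2.97e-12). The rare Ccl7 had a larger fitted one, which depends on the prior count, with 1.66, 1.04 and 1.195 CPM in Vkine samples, against 0 and 0 CPM in EV samples without LPS (interaction -6.53 ± 1.56, edgeR adjusted p = 0.00288). In the sterol list, 22 of its 25 genes were higher in Vkine than in EV without LPS. Hmgcs1 then had 514, 532 and 561 CPM in Vkine samples, against 152 and 155 CPM in EV samples. On the positive side, Csf1r had 21.9, 22.4 and 22.4 CPM in Vkine samples, against 148 and 139 CPM in EV samples without LPS (interaction 3.81 ± 0.10, edgeR adjusted p = 4.03e-13). Ctgf, a matricellular growth factor, had 8.14, 9.96 and 9.42 CPM in Vkine + LPS samples, against 2.76, 2.94 and 4.31 CPM in EV + LPS samples, and 0.504, 0.728 and 0.837 CPM in Vkine samples, against 10.7 and 9.37 CPM in EV samples without LPS (interaction 5.32 ± 0.29, edgeR adjusted p = 1.64e-09). Smad9, a BMP signal transducer, had 40.7, 41.6 and 43.5 CPM in Vkine + LPS samples, against 23.7, 26.8 and 22.5 CPM in EV + LPS samples, and 6.5003, 6.08 and 5.56 CPM in Vkine samples, against 50.6 and 53.8 CPM in EV samples without LPS.

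By list, the resting comparison also differed in direction among groups. Chemokines were higher in 7 and lower in 2 of 14 without LPS, NF-kB genes in 15 and 1 of 24, and immediate early genes in 16 and 5 of 24. Tnf was higher in Vkine samples without LPS as well, with 14.4, 13.6 and 12.9 CPM, against 2.12 and 1.18 CPM in EV samples. The 2 lower chemokines were Ccl17 and Cx3cl1, both higher under LPS. Ccl17 had 0, 0.156 and 0.0598 CPM in Vkine samples, against 0.311 and 0.413 CPM in EV samples without LPS (interaction 4.89 ± 0.80, edgeR adjusted p = 1.05e-04). These resting levels are near the detection limit, so the lower call of Ccl17 and the size of its interaction rest on few reads. Cx3cl1 had 5.04, 3.69 and 3.47 CPM in Vkine samples, against 14.7 and 11.7 CPM in EV samples (interaction 3.76 ± 0.21, edgeR adjusted p = 2.40e-09). Ccl22 was not called there, with 23.1, 20.2 and 19.5 CPM in Vkine samples, against 18.6 and 18.3 CPM in EV samples, and its interaction passed (2.83 ± 0.11, edgeR adjusted p = 2.71e-11). The type I interferon list was higher in 31 and lower in 1 of 39 genes without LPS, and 29 of the 39 had a lower effect of Vkine under LPS by the interaction test. Ifit3, an interferon-induced antiviral gene with a near-identical copy, had 2.77, 2.599 and 2.69 CPM in Vkine samples, against 0.207 and 0.413 CPM in EV samples without LPS, while under LPS it had 7.41, 6.87 and 6.19 CPM in Vkine + LPS samples, against 7.34, 9.002 and 9.46 CPM in EV + LPS samples, and was not called (log2 fold change -0.33 ± 0.14, edgeR adjusted p = 0.0697). Ribosome biogenesis genes were lower in 25 of 25 without LPS, ribosomal protein genes in 29 of 40 and nuclear respiratory chain genes in 17 of 33. Hmox1 was lower in Vkine than in EV without LPS, with 301, 287 and 259.5 CPM in Vkine samples, against 609 and 584 CPM in EV samples.

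**Figure D5:**
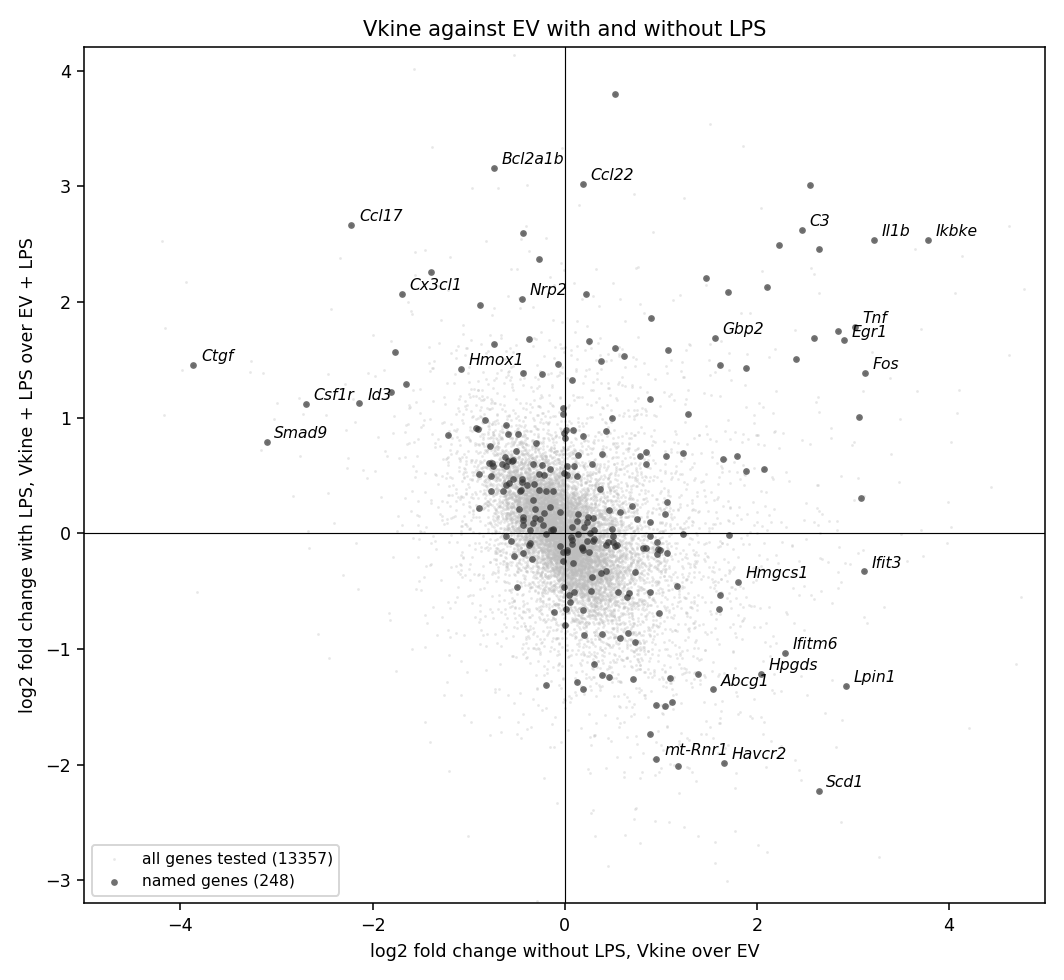
Log2 fold change with LPS, Vkine + LPS over EV + LPS (vertical axis), against that without LPS, Vkine over EV (horizontal axis), grey for all 13357 genes tested and black for the 248 named genes, with 23 genes outside the axes. Scd1 and Lpin1 lie at the lower right, lower with LPS and higher without it, Csf1r, Id3 and Ctgf at the upper left, and Il1b, Tnf and Ikbke at the upper right, higher in both.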

How the data were processed

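RNA of MutuDC samples was extracted with a column kit and sequenced from NEBNext Ultra libraries, per the labels' protocols. The submitters' processing notes name featureCounts 1.5.0-p3, STAR, fastp and DESeq2 1.20.0 and the build GRCm38, with no role or order. The sources used here do not give read strand or duplicate handling. The deposited values are raw counts per Ensembl gene, and the authors also deposited FPKM (length- and depth-scaled fragments), which served only as an alternative on log2(FPKM + 1) and log2(FPKM + 0.1). Gene names, biotypes and coordinates are those of the deposited table.

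Counts of the 11 MutuDC samples were filtered with filterByExpr, scaled by TMM and fitted as 4 group means with the robust quasi-likelihood F test of edgeR 4.0.16 (R 4.3.3). A gene was called where its p, adjusted by Benjamini-Hochberg over the 13357 tested, was under 0.05. The ± after a log2 fold change is its SE (size over root F). CPM use TMM-scaled totals, and log2 CPM a prior count of 2. No replicate pair within the LPS groups differed by less than counting noise. Samples sharing a number did not deviate together (correlations -0.05, -0.10 and 0.005), so the comparison was not paired. The pipeline was tested on simulated data in which far fewer genes changed than here, so that test does not bear on the scaling.

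Named genes are the 15 largest changes per direction among called coding genes that average 2 or more log2 CPM and do not overlap, 5 per direction for the interaction, the study genes, and up to 4 called and 2 uncalled genes of each of 39 lists: 248 in all, of which the text gives a part. Predicted genes and receptor segments were left out of the largest changes and of the genes named for the interaction. Members, lists and named-gene rule were chosen with earlier results of these data known. List counts are read against the share of all genes, lists share genes, and no set test was run. Alternatives used other scaling factors, filters, DESeq2 1.42.0, limma 3.58.1 on FPKM, a fold threshold of 1.5, a replicate block, LPS groups alone, no mitochondrial genes, and each replicate left out. Promoters are RefSeq sequences, at the entry nearest to the deposited gene start. Figures used matplotlib 3.10.9 (Python 3.11.15).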

Additional observations from a re-analysis of the deposited data

Results flagged for a closer look

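The difference between Vkine and EV changed with LPS, by a test of the interaction, in 6577 of 13357 genes and in 191 of the 248 named genes. Among the genes named for this interaction, the log2 values with a more positive effect of Vkine under LPS were 5.32 for Ctgf, 3.89 for Smad9, 3.89 for Bcl2a1b, 3.81 for Csf1r and 3.76 for Cx3cl1. Those with a more negative effect were -3.26 for Hpgds, -3.33 for Ifitm6, -3.45 for Ifit3, -4.25 for Lpin1 and -4.87 for Scd1. These 10 were chosen for the size of a called interaction, so their values are a description. The resting arm has 2 EV samples, and both the interaction and the resting effect rest on them. Ifitm6, an interferon-induced transmembrane gene, had 33.6, 33.8 and 30.8 CPM in Vkine + LPS samples, against 63.9, 58.8 and 78.7 CPM in EV + LPS samples, and 85.4, 88.4 and 98.1 CPM in Vkine samples, against 18.3 and 18.7 CPM in EV samples without LPS. Bcl2a1b and Ifit3 have near-identical copies, so their levels are uncertain.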

How the results depend on the processing

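The count of genes called between Vkine + LPS and EV + LPS stayed within 1.5 times of 5606 under 18 of 19 alternatives, with no opposite sign among shared calls in any. The test against a fold of 1.5 gave 484 genes, against 553 for the resting comparison and 2162 for the interaction, which ask for a larger change by construction. Leaving out 1 replicate at a time gave 4335 to 5974 called genes with LPS, 2748 to 4376 without LPS and 5321 to 7077 for the interaction. Without LPS, leaving out EV replicate 1 or 2 gave 2748 and 2906 against 4707, with 1 EV sample left. With the replicate block the counts were 5250, 4130 and 6142, and the block followed numbers that did not pair the samples. 1 named gene turned round: Itga4, an integrin subunit, was not called (-0.02) and was higher without EV + LPS replicate 2 (0.31; -0.22 without EV + LPS replicate 3), where its level in that replicate was the highest, with 117, 99 and 106 CPM in Vkine + LPS samples, against 95.8, 155 and 76.5 CPM in EV + LPS samples. Leaving out the mitochondrial genes kept 99.5% of the calls. Depth limits rare transcripts such as Il12b, Tlr2 and Vcan.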
